A study of Mus musculus with 6 samples.

Results

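Expression of 10 genes of TGF-beta and activin signalling was examined in untreated mouse embryonic fibroblasts (MEFs), connective-tissue cells cultured from mouse embryos. The genes, taken by name from the pathway, were the ligand genes Tgfb1, Tgfb2, Tgfb3 and Inhba, the receptor genes Tgfbr1, Tgfbr2 and Tgfbr3, the latency gene Ltbp1, the activin antagonist Fst and the intracellular inhibitor Smad7. This set was chosen with earlier results of these data known. The genes are 10 of 55487 in the deposited tables, and all 10 passed the filter on low counts that left 16603 genes for testing.

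The libraries came from KO cultures and WT cultures, each sequenced at passage 2, 3 and 4, a passage being a round of detaching and replating. Each genotype is represented by a single library per passage, 6 in all. Which gene was knocked out, and in which strain, was not named in the sources used here. The series title concerns mTORC1 signalling and the CCL24-CCR3 axis in granulomas. Library titles set the genotype. The genotype tag disagrees with the title in the KO libraries of passages 3 and 4, which it gives as WT, and values obtained with the tag are among the alternatives. No source states how many embryos were used, so the passages of a genotype may share a culture. The 3 passages of a genotype stood in as its replicates. P-values thus measure only the spread between these libraries, which may be technical. In a fit of genotype that ignores passage, this spread also includes any change over passages. In a bulk library, fewer cells of a type cannot be told apart from less RNA per cell.

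TGF-beta ligands are secreted in a latent form, bound to their own propeptide and often to a latent TGF-beta binding protein that tethers the complex to the matrix. Once freed, a ligand joins a type II receptor to a type I receptor, which phosphorylates SMAD2 and SMAD3, and these enter the nucleus with SMAD4. Activins use their own receptors to reach the same SMADs, and in fibroblasts the pathway is best known for driving matrix and contractile genes.

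Library totals ran from 24853121 to 67760880 expected counts, and the 10 genes had 397 to 47563 counts in a library. Transcripts that differ by sex split the libraries as the titles do. Xist averaged 516 ± 85.9 CPM (expected counts relative to the TMM-scaled library total) in KO and 0.209 CPM in WT, while the Y-linked gene Ddx3y averaged 0.268 CPM in KO and 82.6 ± 8.01 CPM in WT (SD, n = 3 each). Genotype and sex therefore cannot be told apart in any KO and WT difference below. All 10 fibroblast markers examined were above 1 TPM (the authors' RSEM level, which is scaled for length) in every library, with summed levels of 10334 to 11477 TPM in KO and 15161 to 20765 TPM in WT. Of these markers 5 were called lower in KO (Col1a1, Col1a2, Col3a1, Pdgfra and Dcn) and 0 higher. Over all genes tested, 1.55% were called lower and 0.934% higher. Vim went the other way without a call. At passages 2, 3 and 4 it had 2352, 2300 and 2103 CPM in KO, against 1930, 1870 and 2082 CPM in WT. The 7 endothelial markers summed to 39.3 to 57.6 TPM in KO and 72.5 to 75.3 TPM in WT, and the 7 muscle markers to 62.5 to 159 TPM in KO and 18.7 to 40.5 TPM in WT, with Myf5 at 0 throughout. The 12 macrophage markers summed to 102, 40.4 and 26.6 TPM in KO and to 162, 62.7 and 24.9 TPM in WT at passages 2, 3 and 4. The 6 epithelial markers summed to 29.4, 26.1 and 19.5 TPM in KO and to 21.9, 8.31 and 7.05 TPM in WT, and the 4 neural markers to 86.9, 97.1 and 73.7 TPM in KO and to 81.5, 62.5 and 61.9 TPM in WT. The part of these other cells in the results below was not tested.

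Promoter sequence from RefSeq on GRCm38.p6 was at hand for 6 of the 10 genes (Tgfb1, Tgfb2, Inhba, Tgfbr1, Tgfbr2 and Ltbp1). Windows for Inhba and Ltbp1 are shown because these genes were called higher in KO with passage as a block, and that for Tgfbr2 because it was called lower in that fit, as given below. Each runs 5′ to 3′ on the gene's strand over the 250 bases before a transcript start, and capitals mark matches to the motifs searched.
Inhba, chr13:16011601-16011850, plus strand: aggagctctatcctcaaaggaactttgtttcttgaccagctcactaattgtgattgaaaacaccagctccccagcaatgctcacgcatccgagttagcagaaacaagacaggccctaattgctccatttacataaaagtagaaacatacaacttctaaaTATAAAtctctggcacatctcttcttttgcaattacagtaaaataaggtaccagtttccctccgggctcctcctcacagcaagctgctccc
Ltbp1 upstream start, chr17:75005279-75005528, plus strand: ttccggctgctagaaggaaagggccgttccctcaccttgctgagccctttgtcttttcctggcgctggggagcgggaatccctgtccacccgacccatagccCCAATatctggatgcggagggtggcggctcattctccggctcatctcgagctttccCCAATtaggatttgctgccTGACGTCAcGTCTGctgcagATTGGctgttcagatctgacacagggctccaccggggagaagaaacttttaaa
Ltbp1 downstream start, chr17:75178531-75178780, plus strand: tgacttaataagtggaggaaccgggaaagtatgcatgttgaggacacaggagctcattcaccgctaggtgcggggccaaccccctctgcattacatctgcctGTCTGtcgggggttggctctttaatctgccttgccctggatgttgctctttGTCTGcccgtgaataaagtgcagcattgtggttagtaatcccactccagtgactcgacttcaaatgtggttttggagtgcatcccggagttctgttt
Tgfbr2, chr9:116175364-116175613, minus strand: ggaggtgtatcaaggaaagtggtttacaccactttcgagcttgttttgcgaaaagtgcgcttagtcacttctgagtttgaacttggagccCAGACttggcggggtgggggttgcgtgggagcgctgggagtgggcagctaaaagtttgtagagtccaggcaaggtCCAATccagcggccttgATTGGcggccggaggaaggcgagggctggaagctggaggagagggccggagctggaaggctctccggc

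Letters were searched on both strands, and the share of all 32851 promoter windows of this length that held them was computed. The AP-1 site was searched as TGANTCA, which 6.75% of windows held. The SMAD box was searched as CAGAC, which 42.2% of windows held. For the GC box, GGGCGG, the share was 32.7%. For the TATA box, TATAAA, it was 12.4%, and for the CCAAT box, whose letters are its name, 33.8%. The cyclic AMP response element (CRE), searched as TGACGTCA, was in 1.55% of windows. The TEAD site, searched as CATTCC, was in 12.6% of windows. The Inhba window, 43.2% G and C, held 1 match, a TATA box at 91 to 86 bases before the start. At its upstream start Ltbp1 had a CRE at 73 to 66 bases, a SMAD box at 64 to 60 bases and 3 CCAAT boxes. The downstream start of Ltbp1 had 2 SMAD boxes. The Tgfbr2 window held 1 SMAD box and 2 CCAAT boxes. These are matches of letters and do not show that a factor binds there. The deposited tables give 1 value per gene, so the starts of Ltbp1 were not separated.

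Between genotypes, transcripts of the receptor genes Tgfbr1, Tgfbr2 and Tgfbr3 and of Fst were lower in KO at every passage. Those of Inhba, Ltbp1, Tgfb2 and Smad7 were higher at every passage. The share of all genes with the same direction at every passage was not computed. In the edgeR test across all genes, 1 of the 10 genes was called lower in KO (Tgfbr3) and 0 higher, where 2.48% of the 16603 genes were called, 1.55% lower and 0.934% higher. With passage as a block, 2 were called lower (Tgfbr2 and Tgfbr3) and 2 higher (Inhba and Ltbp1), where 11.1% of all genes were called, 6.37% lower and 4.69% higher. The median log2 change of the 10 genes was 0.02, beside -0.01 over all genes tested. Members lay on both sides, 6 with a positive and 4 with a negative estimate.

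**Figure D1:**
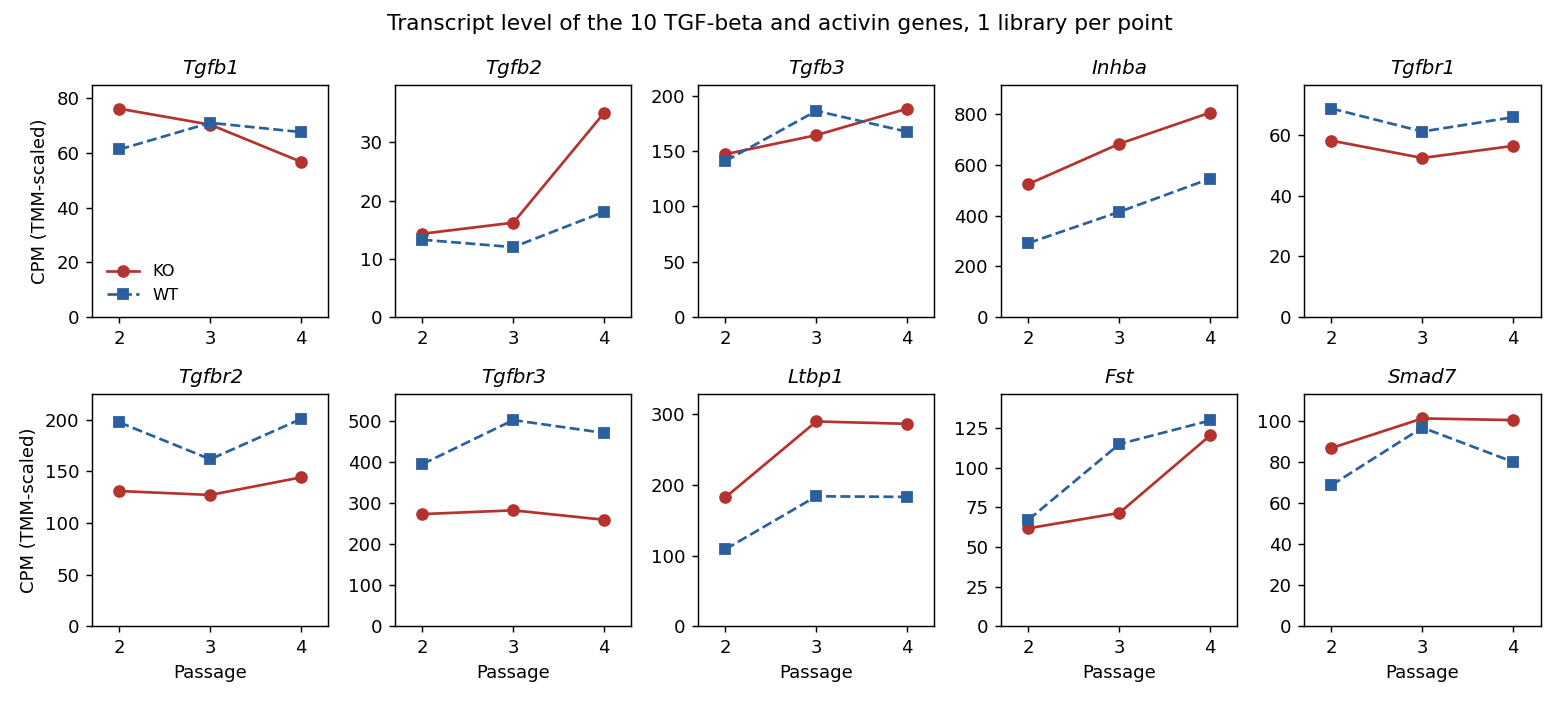
Transcript level of each of the 10 genes in CPM (y axes, each from 0) at passages 2, 3 and 4 (x axes), with KO as red circles, WT as blue squares and 1 library per point. The KO line lies above WT at every passage for Tgfb2, Inhba, Ltbp1 and Smad7 and below it at every passage for Tgfbr1, Tgfbr2, Tgfbr3 and Fst.

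Of the ligand genes, Inhba (ENSMUSG00000041324, GRCm38 chromosome 13, 16011851 to 16031621, plus strand) encodes the beta A subunit, a pair of which forms activin A. It had 524, 683 and 805 CPM in the KO libraries of passages 2, 3 and 4, against 292, 415 and 545 CPM in the WT libraries. KO was higher at each passage, but the lowest KO library lay below the highest WT library, so the groups overlapped. Group means were 671 ± 141 CPM in KO and 417 ± 127 CPM in WT (SD, n = 3 each), a log2 change of 0.68 ± 0.25 SE that was not called (edgeR adjusted p = 0.176). With passage as a block the change was 0.71 ± 0.10 SE and was called (edgeR adjusted p = 0.00805). The log2 differences at passages 2, 3 and 4 were 0.84, 0.72 and 0.56.

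Tgfb1 (ENSMUSG00000002603, chromosome 7, 25687002 to 25705077, plus strand) encodes the prototype of the ligand family. It had 76.1, 70.3 and 56.7 CPM in KO at passages 2, 3 and 4, against 61.2, 70.9 and 67.5 CPM in WT. The KO library was the higher at passage 2 and the lower at passage 4, and the groups overlapped. Means were 67.7 ± 9.95 CPM in KO and 66.6 ± 4.92 CPM in WT, with a log2 change of 0.02 ± 0.13 SE (edgeR adjusted p = 0.941). The sign of this change depended on which library was left out, with values from -0.07 to 0.14.

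Tgfb2 (ENSMUSG00000039239, chromosome 1, 186622792 to 186705989, minus strand) encodes the ligand that needs betaglycan to bind its type II receptor well. It had the lowest mean level per length of the 10 genes (given in TPM below). It had 14.3, 16.2 and 35.1 CPM in KO and 13.3, 12.02 and 18.1 CPM in WT at passages 2, 3 and 4. The KO library of passage 4 stood above all others, and the groups overlapped. The log2 change was 0.60 ± 0.36 SE (edgeR adjusted p = 0.389, and 0.0975 with the block). It was 0.0836 when the passage 4 KO library was left out.

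Tgfb3 (ENSMUSG00000021253, chromosome 12, 86056745 to 86079041, minus strand) had 147, 164 and 188 CPM in KO, against 141, 186 and 167 CPM in WT. The ranges nearly coincided, and the log2 change was 0.01 ± 0.14 SE (edgeR adjusted p = 0.967). The gene is overlapped on the other strand by Ttll5, whose count reached 23.1% of that of Tgfb3. Strand handling in the counting is not known, and the share of Tgfb3 reads from the overlapped stretch was not measured. Overlapping genes of the other members held less than 1% of the member's count in any library.

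Per length, Tgfb3 was the main TGF-beta ligand transcript in all 6 libraries, with its overlap with Ttll5 not accounted for. In the KO library of passage 2 it had 73.0 TPM, against 63.5 TPM of Tgfb1. Its share of summed Tgfb1, Tgfb2 and Tgfb3 TPM was 51.1, 55.8 and 60.5% in KO at passages 2, 3 and 4, against 55.2, 59.7 and 56.9% in WT. Tgfb1 made up 44.4, 38.9 and 30.1% in KO and 39.7, 36.6 and 37.7% in WT. Tgfb2 contributed 4.51, 5.34 and 9.48% in KO and 5.11, 3.66 and 5.33% in WT. The shares in KO moved in 1 direction over the passages, Tgfb1 down and the other two up, while those in WT did not. Mean shares of Tgfb1 were 37.8 ± 7.23% in KO and 38.0 ± 1.54% in WT (exact 2-sided permutation p = 1), and those of Tgfb2 were 6.44 ± 2.66% in KO and 4.70 ± 0.909% in WT (exact p = 0.4), a difference of 1.74 percentage points that was 0.225 without the KO library of passage 4. For Tgfb3 the exact p was 0.7. With 3 libraries against 3 the smallest p possible is 0.1, so no difference between the genotypes could pass 0.05 here.

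The receptors are the type I receptor gene Tgfbr1, the type II receptor gene Tgfbr2 and Tgfbr3, whose product betaglycan presents ligand to the signalling receptors and, when shed, can bind it away. Tgfbr3 (ENSMUSG00000029287, chromosome 5, 107106570 to 107289629, minus strand) had 273, 283 and 259 CPM in KO at passages 2, 3 and 4, against 395, 502 and 471 CPM in WT. All KO libraries lay below all WT libraries, in CPM and in TPM, a pattern that 14.1% of all genes tested showed in CPM. Means were 272 ± 11.6 CPM in KO and 456 ± 55.2 CPM in WT (SD, n = 3 each), with a KO to WT ratio of 0.596. The log2 change was -0.75 ± 0.12 SE (edgeR adjusted p = 0.0245, and 0.00822 with the block), and at passages 2, 3 and 4 it was -0.53, -0.83 and -0.86. The sign held in each alternative run, but the call did not. Adjusted p was 0.0723 without the KO library of passage 2, 0.147 without that of passage 3, 0.0686 without that of passage 4, 0.121 without the WT library of passage 3, 0.0734 without both libraries of passage 2, and 0.873 with the genotype tag, which leaves 1 KO library.

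Tgfbr2 (ENSMUSG00000032440, chromosome 9, 116084293 to 116175360, minus strand) had 131, 127 and 144 CPM in KO at passages 2, 3 and 4, against 198, 162 and 201 CPM in WT. The groups did not overlap in CPM, though they did in TPM, with 43.7, 47.6 and 57.7 TPM in KO and 73.0, 50.6 and 69.3 TPM in WT. The log2 change was -0.48 ± 0.12 SE and was not called (edgeR adjusted p = 0.0793). It was called with the block (log2 -0.47, edgeR adjusted p = 0.0226) and by DESeq2 (log2 -0.47, adjusted p = 0.00901). With no filter on low counts it was also called (edgeR adjusted p = 0.0377). On log2(TPM + 1) it was not (limma adjusted p = 0.352). Nor was it called in any fit without 1 library (edgeR adjusted p from 0.0961 to 0.330).

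Tgfbr1 (ENSMUSG00000007613, chromosome 4, 47353222 to 47414931, plus strand) had 58.1, 52.4 and 56.3 CPM in KO, against 68.6, 61.1 and 65.8 CPM in WT. Again the groups did not overlap in CPM and did in TPM. The log2 change was -0.23 ± 0.09 SE and was not called (edgeR adjusted p = 0.216, and 0.121 with the block). In CPM 3 of the 10 genes had no overlap between genotypes, near the 27.2% of all genes tested with none in either direction. These were the 3 receptor genes, each lower in KO. In TPM the genes without overlap were Tgfbr3, lower in KO, and Ltbp1 and Smad7, higher in KO. The difference between the receptor changes was not tested.

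Ltbp1 (ENSMUSG00000001870, chromosome 17, 75005568 to 75392512, plus strand) encodes a matrix protein that holds latent TGF-beta. It had 182, 290 and 286 CPM in KO at passages 2, 3 and 4, against 109, 184 and 183 CPM in WT. In both genotypes passage 2 was the low point and the other passages were alike. CPM overlapped only through the KO library of passage 2, which lay just under the WT libraries of passages 3 and 4, and TPM did not overlap (58.5, 104 and 109 TPM in KO, 39.2, 53.8 and 57.8 TPM in WT). For all genes, the share without overlap in TPM was not computed. The log2 change of Ltbp1 was 0.67 ± 0.25 SE and was not called (edgeR adjusted p = 0.193). With passage as a block it was 0.68 ± 0.09 SE and was called (edgeR adjusted p = 0.00634), with differences of 0.74, 0.66 and 0.65 at passages 2, 3 and 4.

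Fst (ENSMUSG00000021765, chromosome 13, 114452290 to 114458951, minus strand) encodes follistatin, a secreted protein that binds activin and keeps it from its receptors. It had 61.9, 71.6 and 121 CPM in KO at passages 2, 3 and 4, against 67.3, 115 and 130 CPM in WT. KO was lower at each passage, with overlapping ranges and a log2 change of -0.30 ± 0.32 SE (edgeR adjusted p = 0.643, and 0.166 with the block). Leaving out 1 library gave changes from -0.64 (without the KO library of passage 4) to -0.10 (without the WT library of passage 4). The gap was widest at passage 3, where the log2 difference was -0.68.

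The ratio of Fst to Inhba within a library sets an antagonist against its ligand subunit. There were 0.306, 0.263 and 0.367 TPM of Fst for each TPM of Inhba in KO at passages 2, 3 and 4, against 0.591, 0.681 and 0.569 in WT. Every KO library lay below every WT library. The mean ratio was 0.312 ± 0.0521 in KO and 0.614 ± 0.0591 in WT (SD, n = 3 each), a log2 difference of -0.99. The exact 2-sided permutation p was 0.1, the smallest that 3 against 3 allow. Leaving out any 1 library gave log2 differences from -1.11 to -0.87. By the genotype tag only the passage 2 library is KO. Its ratio of 0.306 lies between the 0.263 and 0.367 of the KO-titled libraries that the tag gives as WT. How often the ratio of 2 genes separates the genotypes in this way was not computed.

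**Figure D2:**
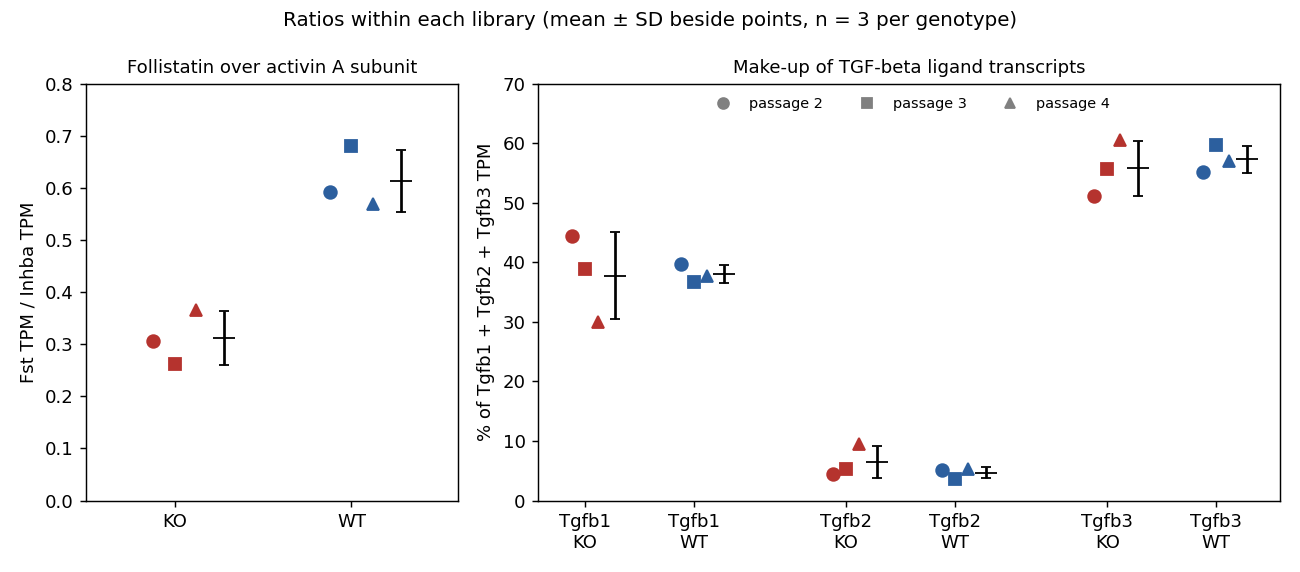
Left, Fst TPM divided by Inhba TPM in each library (y axis) by genotype (x axis). Right, the percentage of summed Tgfb1, Tgfb2 and Tgfb3 TPM held by each gene, with circles, squares and triangles for passages 2, 3 and 4 and black bars for mean ± SD (n = 3). The Fst to Inhba ratio lies at 0.263 to 0.367 in KO and 0.569 to 0.681 in WT, while the ligand shares overlap.

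Smad7 (ENSMUSG00000025880, chromosome 18, 75367529 to 75395935, plus strand) encodes the inhibitory SMAD that TGF-beta induces and that turns over the receptors. It had 86.8, 101 and 100.4 CPM in KO at passages 2, 3 and 4, against 68.7, 96.8 and 80.0 CPM in WT. KO was higher at each passage, by little at passage 3, and the CPM ranges overlapped. The log2 change was 0.23 ± 0.14 SE (edgeR adjusted p = 0.391, and 0.136 with the block). In TPM the groups did not overlap, at 45.1, 52.4 and 61.7 in KO and 36.9, 42.4 and 35.7 in WT. The share of all genes without overlap in TPM was not computed. On log2(TPM + 1) Smad7 was not called (limma adjusted p = 0.196). The median log2 change of all genes was 0.08 on that scale, against -0.01 in the main edgeR fit.

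**Figure D3:**
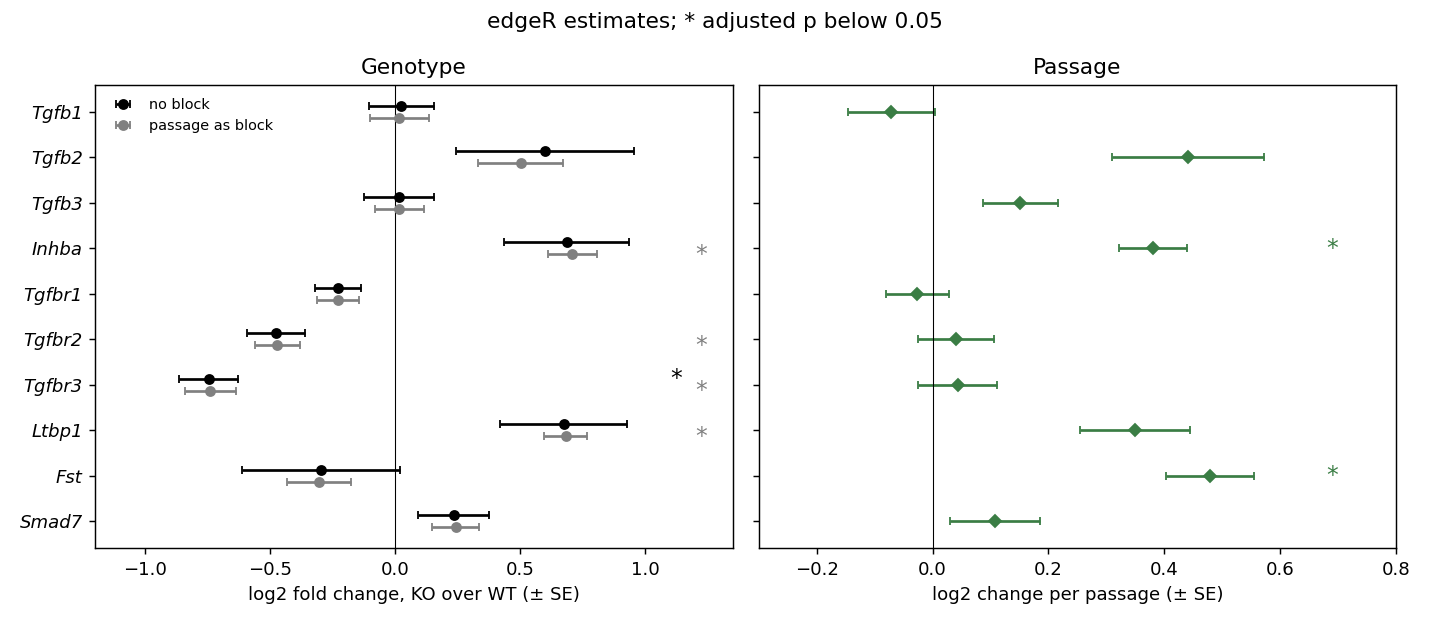
Estimated log2 change ± SE of each of the 10 genes by edgeR, left for KO over WT without (black) and with (grey) passage as a block, right per passage. Stars mark an adjusted p under 0.05: Tgfbr3 without the block, Inhba, Tgfbr2, Tgfbr3 and Ltbp1 with it, and Inhba and Fst per passage.

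In the slope per passage, fitted with genotype as a covariate, 2 of the 10 genes were called higher (Fst and Inhba) and 0 lower, where 6.25% of all genes were called, 2.78% higher and 3.48% lower. The median slope of the 10 was a log2 change of 0.13 per passage, beside 0.00 over all genes. Inhba rose by 0.38 ± 0.06 SE per passage (edgeR adjusted p = 0.0115), and its passage 4 level was 1.54 times that of passage 2 in KO and 1.87 times in WT. Fst rose by 0.48 ± 0.08 SE per passage (edgeR adjusted p = 0.0129), and its passage 4 level was 1.95 times that of passage 2 in KO and 1.93 times in WT. Both climbed at each step in both genotypes, as did 9.47% of all genes tested, while none of the 10 dropped at each step in both, as 8.91% of all genes did. The macrophage markers, which fell over the same passages, are given above.

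Both calls depended on single libraries. For Inhba adjusted p was 0.0617 without the KO library of passage 2, 0.0833 without the WT library of passage 2 and 0.0793 without the WT library of passage 4, and 0.436 with no genotype covariate. For Fst it was 0.114 without the KO library of passage 4, 0.0919 without the WT library of passage 2, and 0.102 with no genotype covariate. Ltbp1 had a slope of 0.35 ± 0.09 SE, not called (edgeR adjusted p = 0.0755), though called by DESeq2 (adjusted p = 0.0103). Tgfb2 had a slope of 0.44 ± 0.13 SE, also not called by edgeR (adjusted p = 0.104) and called by DESeq2 (adjusted p = 0.0258). The Tgfb2 slope was 0.22 when the passage 4 KO library was left out. With no filter on low counts both Ltbp1 (adjusted p = 9.27e-05) and Tgfb2 (adjusted p = 2.84e-05) were called by edgeR. On log2(TPM + 1) neither slope was called (limma adjusted p = 0.0772 for Ltbp1 and 0.306 for Tgfb2). Of the fits without 1 library, only that without the WT library of passage 3 called Ltbp1 (edgeR adjusted p = 0.0381). None of them called Tgfb2. The receptor slopes lay near 0, at -0.03 for Tgfbr1 and 0.04 for both Tgfbr2 and Tgfbr3, and those of Tgfb1 (-0.07), Tgfb3 (0.15) and Smad7 (0.11) were not called either.

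Whether the genotypes changed differently over passages was tested as the KO slope minus the WT slope. None of the 10 genes was called, and 0 of 16603 genes were called by edgeR (0%), with 1137 at an unadjusted p under 0.05. DESeq2 called 83 genes, with 0 of the 10 among them. The estimate for Tgfb2 was a log2 difference of 0.43 ± 0.22 SE per passage (edgeR adjusted p = 0.769), and that for Tgfb1 was -0.28 (unadjusted p = 0.0441, edgeR adjusted p = 0.71). The fit had 2 residual degrees of freedom, and an adjusted p above the threshold does not show that the slopes were alike.

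In TPM, which allows genes to be set against each other, the genes are given in the order of their mean over all 6 libraries. Inhba came first, at 291 ± 82.1 TPM in KO and 170 ± 59.5 TPM in WT, although in the WT library of passage 2 it had 120.2 TPM, below the 137 TPM of Tgfbr3. Tgfbr3 followed at 91.4 ± 5.45 TPM in KO and 143 ± 4.98 TPM in WT, and Fst at 92.2 ± 38.6 TPM in KO and 103 ± 31.6 TPM in WT. Tgfb3 (91.1 ± 18.7 TPM in KO, 81.8 ± 3.84 TPM in WT) and Ltbp1 (90.6 ± 27.9 TPM in KO, 50.3 ± 9.78 TPM in WT) came next. In KO the levels of Tgfbr3, Fst, Tgfb3 and Ltbp1 lay within their spread of each other. In WT Tgfbr3 stood above Tgfb3 in every library, and Ltbp1 had lower means than Tgfb1 and Tgfbr2. Tgfb1 (60.3 ± 4.75 TPM in KO, 54.3 ± 1.80 TPM in WT), Tgfbr2 (49.7 ± 7.22 TPM in KO, 64.3 ± 12.04 TPM in WT) and Smad7 (53.1 ± 8.32 TPM in KO, 38.3 ± 3.56 TPM in WT) came after them in the mean over all libraries. Tgfbr1 (21.02 ± 2.37 TPM in KO, 23.5 ± 3.24 TPM in WT) and Tgfb2 (10.8 ± 5.75 TPM in KO, 6.71 ± 1.32 TPM in WT) were the lowest.

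The genes closest in pattern to the called members were found by Pearson r of log2 CPM over the 6 libraries, which share genotype and passage, so these are descriptions. Tgfbr3 was closest to Fam20a (r = 0.9989), Gm19719 (r = 0.9979) and Smap2 (r = 0.9979). Inhba was closest to Pkp2 (r = 0.9974), Htr2a (r = 0.9969) and Ate1 (r = 0.9953). Fst was closest to Id4 (r = 0.9951), 9130024F11Rik (r = 0.9951) and Efna3 (r = 0.9932). Among the 10 genes themselves the highest values were 0.951 between Inhba and Ltbp1, 0.939 between Tgfbr1 and Tgfbr2, and 0.911 between Ltbp1 and Smad7.

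Around these 10 genes, a further 91 genes of the pathway were listed by role, of which 89 were matched and 78 tested. Between genotypes 4 were called higher and 6 lower in KO (0.934% and 1.55% of all genes), with a median log2 change of -0.10. With the block 11 were called higher and 19 lower (4.69% and 6.37% of all genes). Over passages 3 were called higher and 4 lower, near the 2.78% and 3.48% of all genes. The lowest list median between genotypes was that of the extracellular inhibitors.

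Of 8 extracellular inhibitors tested, 2 fell in KO (1.55% of all genes), 0 rose (0.934% of all genes) and 6 did not pass. All 8 had a negative estimate (median -0.69), as did 8564 of all 16603 genes. With the block 6 of the 8 were called lower (6.37% of all genes). Fmod, which encodes the collagen-binding proteoglycan fibromodulin, had 24.0, 17.1 and 23.1 CPM in KO at passages 2, 3 and 4, against 49.4, 82.8 and 56.9 CPM in WT. No KO library reached a WT library, as for 14.1% of all genes tested. The log2 change was -1.56 ± 0.22 SE (edgeR adjusted p = 0.0192). Dcn, which encodes decorin, a proteoglycan that can bind TGF-beta and is also a fibroblast marker, had 325, 306 and 242 CPM in KO and 509, 679 and 488 CPM in WT (log2 -0.94 ± 0.17 SE, edgeR adjusted p = 0.0370). Its call held only when the WT library of passage 4 was the one left out, and that of Fmod was lost without the KO or the WT library of passage 3. Fstl3, a relative of Fst that also binds activin, had a log2 change of -0.13 (edgeR adjusted p = 0.749).

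Of the other receptors and co-receptors, 6 of 8 tested had negative estimates without a call. In this list 0 rose and 0 fell, with a median of -0.21, and 3 were called lower with the block (6.37% of all genes). Acvr2a, an activin type II receptor gene, had 76.6, 65.6 and 105 CPM in KO at passages 2, 3 and 4, against 140.4, 132 and 156 CPM in WT. All its KO libraries lay below its WT libraries, as for 14.1% of all genes tested. Its log2 change was -0.80 (edgeR adjusted p = 0.0657, and 0.00683 with the block). Acvr1b, the main activin type I receptor gene, had a log2 change of -0.51 (edgeR adjusted p = 0.135, and 0.0348 with the block). Among 3 other ligand genes tested, Inha fell to 1.06 ± 0.143 CPM in KO, against 2.67 ± 0.424 CPM in WT (SD, n = 3 each, log2 -1.33, edgeR adjusted p = 0.0435). It encodes the inhibin alpha subunit, which pairs with activin subunits to form inhibins. Its counts were as low as 25, and its call held only when the WT library of passage 4 was left out.

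Of 15 latency and activation genes tested, none was called between genotypes, with a median of -0.33. The block gave 4 called lower (6.37% of all genes). Over passages 2 of them fell and 0 rose (3.48% and 2.78% of all genes). Itgb8, the integrin beta 8 subunit that binds latent TGF-beta, had 6.85, 6.07 and 3.21 CPM in KO at passages 2, 3 and 4, and 9.55, 6.81 and 3.85 CPM in WT. It fell at each step in both genotypes, as did 8.91% of all genes tested, with a slope of -0.60 (edgeR adjusted p = 0.0230). Nrros, which tethers latent TGF-beta on macrophages and microglia, had a slope of -0.74 (edgeR adjusted p = 0.0408) from counts as low as 16, and summed macrophage markers fell over the same passages.

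Of 16 SMAD genes and regulators tested, 1 rose in KO (0.934% of all genes), 0 fell and 15 did not pass, with a median of 0.07. Nedd4l, a ubiquitin ligase that acts on SMADs and receptors, had 68.8, 71.4 and 65.9 CPM in KO at passages 2, 3 and 4, against 49.0, 45.0 and 49.9 CPM in WT (log2 0.52, edgeR adjusted p = 0.0347). Its call held only when the WT library of passage 4 was the one left out. The signal carriers Smad2 (log2 0.09, adjusted p = 0.679), Smad3 (0.18, adjusted p = 0.321) and Smad4 (-0.09, adjusted p = 0.589) were not called by edgeR.

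Of 32 response genes tested, 3 rose and 3 fell in KO (0.934% and 1.55% of all genes). The other 26 did not pass, and the median of the list was 0.02. Tgfbi, a matrix protein gene named for its induction by TGF-beta, had 62.5, 41.1 and 50.9 CPM in KO at passages 2, 3 and 4, against 215, 214 and 165 CPM in WT. It was the lowest in adjusted p of all the listed genes (log2 -1.95 ± 0.18 SE, edgeR adjusted p = 0.00483) and kept its call in 6 of 6 fits that left out a library. Timp3, a metalloprotease inhibitor gene (log2 -1.04, adjusted p = 0.0257), and Col1a1, a collagen gene and fibroblast marker (log2 -0.95, adjusted p = 0.0361), also fell. Hmga2, a chromatin protein gene, averaged 529 ± 68.6 CPM in KO and 221 ± 53.5 CPM in WT (log2 1.26, edgeR adjusted p = 0.0206). The tropomyosin gene Tpm1 (log2 0.66, adjusted p = 0.0399) and Itga5, an integrin subunit gene of the fibronectin receptor (log2 0.53, adjusted p = 0.0439) also rose by edgeR.

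With the block 10 response genes were called higher and 4 lower (4.69% and 6.37% of all genes). In fits without a single library, Hmga2 and Timp3 lost their calls without the KO library of passage 3 or 4 or the WT library of passage 2 or 3. Col1a1 kept its call only without the WT library of passage 4, and Tpm1 and Itga5 kept theirs in none of the 6.

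Over passages 3 response genes rose and 2 fell (2.78% and 3.48% of all genes). Cdkn1a, the p21 cell cycle inhibitor gene that p53 also drives, had 247, 376 and 446 CPM in KO at passages 2, 3 and 4, and 178, 279 and 410 CPM in WT (slope 0.51 ± 0.07 SE, edgeR adjusted p = 0.00580). Cdkn2b, the p15 inhibitor gene, had 22.9, 28.8 and 37.5 CPM in KO and 22.1, 29.7 and 38.9 CPM in WT, nearly the same in both genotypes (slope 0.38, edgeR adjusted p = 0.00967). Acta2, smooth muscle actin, had 2564, 3228 and 3873 CPM in KO and 1665, 2334 and 2893 CPM in WT (slope 0.35, edgeR adjusted p = 0.0183). All 3 climbed at each step in both genotypes, as Inhba, Fst and 9.47% of all genes tested did. The 3 are named here for their called slopes, so such a climb is partly given by that choice. The transcription factor genes Bhlhe40 (slope -0.46, adjusted p = 0.0191) and Junb (slope -0.27, adjusted p = 0.0331) fell. Cdkn1a lost its call without the WT library of passage 2 or 4. Cdkn2b, Acta2, Bhlhe40 and Itgb8 lost theirs without either genotype's library of passage 2 or 4, Junb kept its call only without the WT library of passage 3, and Nrros kept its in no such fit.

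**Figure D4:**
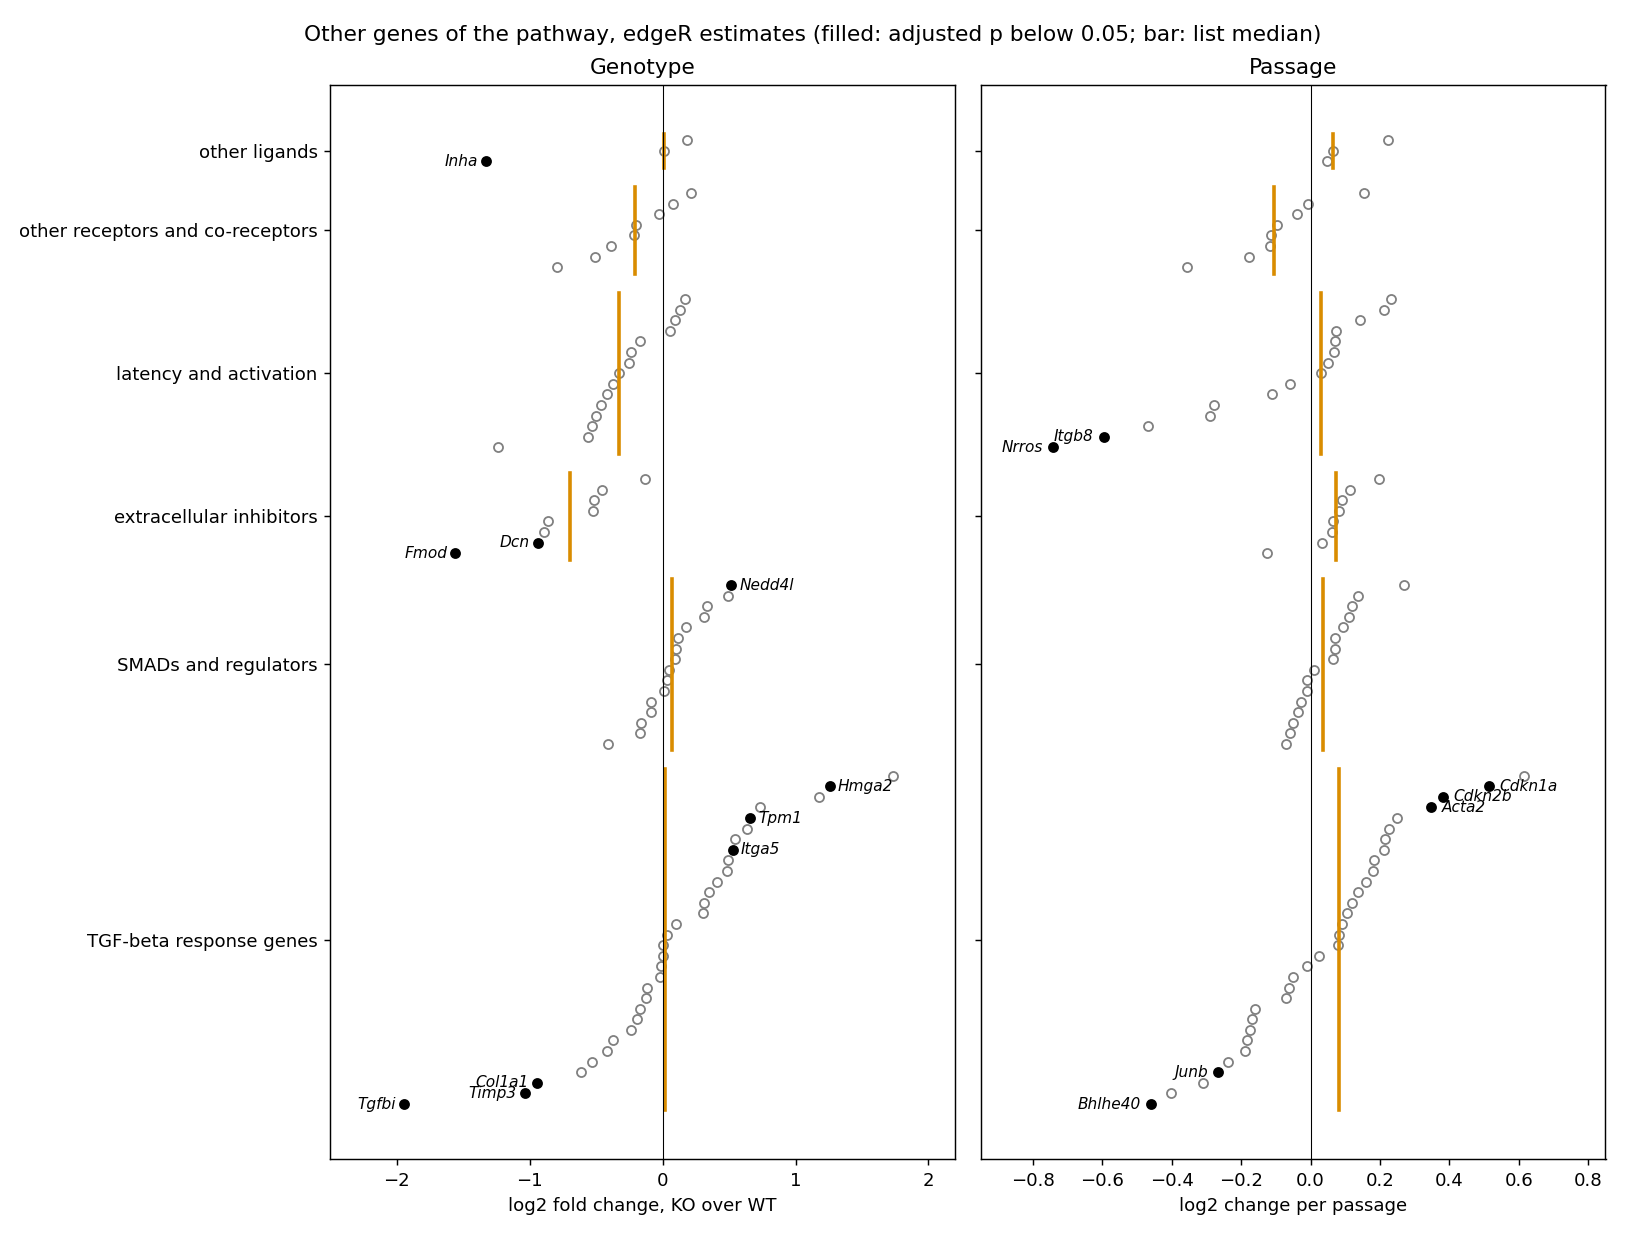
The 78 other tested pathway genes by role (rows, 1 point per gene), with the edgeR log2 change of KO over WT on the left x axis and per passage on the right. Filled points had an adjusted p under 0.05, and orange bars mark list medians, the lowest for genotype being that of the extracellular inhibitors at -0.69.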

How the data were processed

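Trimmomatic 0.39 (trimming), RSEM (quantification) and the GRCm38 build are named in the submitters' processing notes. No version of RSEM, annotation release or strand setting is given in the sources used here. Expected counts in the deposited tables come from dividing ambiguous reads among genes, and up to 15.8% of them in a library were not whole. The deposited TPM values are RSEM levels that the authors scaled for length and to the same sum in each library. FPKM and effective lengths were deposited too, and FPKM, which the authors scaled for length and depth, was not used. Symbols came from GENCODE M21 (55227 of 55487 gene IDs matched).

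Expected counts were rounded, scaled by TMM and tested across all genes with the 2-sided quasi-likelihood test of edgeR 4.0.16 in R 4.3.3. Genes with low counts were removed first (minimum count 10, with genotype as the group). A call is a Benjamini-Hochberg adjusted p under 0.05 over 16603 genes. Residual degrees of freedom were 4 for genotype without covariates and 3 for the passage slope with genotype as a covariate. They were 2 for the difference of slopes and for genotype with passage as a block. Chi-square per degree of freedom between libraries was 33.2 or more, so none was a repeat of another. Passage numbers come from the labels. Deviations from the genotype means correlated between same-passage libraries at 0.488, 0.137 and 0.416 for passages 2, 3 and 4, so passage was also fitted as a block. Alternatives used DESeq2 1.42.0, limma 3.58.1 on log2(TPM + 1) or log2(TPM + 0.5), other scaling and filters, the genotype tag, and each library left out. Genotype fits that left out a library had no block, so calls made with the block were not tested that way.

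The 10 genes and the pathway and marker lists were chosen with earlier results of these data known. Named from the lists were the genes called for genotype or passage, up to 12 in each, plus Tgfbi, Acvr1b, Acvr2a, Smad2, Smad3, Smad4 and Fstl3. A further gene of this rule is not reported here. Sequences were read from RefSeq promoter windows on GRCm38.p6 and searched with Python 3.11.15.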

Additional observations from a re-analysis of the deposited data

How the results depend on the processing

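Passage as a block, which pairs the libraries of a passage, called 1835 genes between genotypes (412 without it), 4 of the 10 genes (1 without it) and 30 of the pathway lists (10 without it). DESeq2 called 1661, 2 and 24, a fit with no filter on low counts 846 and 2, log2(TPM + 1) 191 genes (98 higher, 93 lower) and 4 of the lists, log2(TPM + 0.5) 198 and 4, the genotype tag 0, 0 and 0, and a fit without both libraries of passage 2, chosen after seeing the data, 59, 0 and 1 (Tgfbi). Without 1 library the counts ran from 38 (KO passage 3) to 847 (WT passage 4) genes, 0 to 1 of the 10 and 1 to 12 of the lists. The median of the 10 genes was 0.14 with either TPM pseudocount and -0.20 by the tag. TPM moved the median of all genes to 0.08 and 0.09 for genotype.

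For passage, with 1038 genes, 2 of the 10 and 7 of the lists called, DESeq2 called 1709, 4 and 13, no filter 2443, 4 and 21, log2(TPM + 1) 608 genes, log2(TPM + 0.5) 587 genes and 4 of the lists, no genotype covariate 157, 0 and 1, and fits without 1 library 278 to 1286, 0 to 3 and 0 to 8. For the interaction, with 0 called, DESeq2 called 83 genes, no filter 289, TPM 1 with either pseudocount and fits without 1 library 0 to 10. The median of the 10 genes ran from -0.30 to 0.0474 without 1 library and was 0.16 on TPM with either pseudocount, where the median of all genes was 0.15 and 0.17.

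By the genotype tag the log2 change turned to -0.40 for Tgfb2, -0.20 for Tgfb3, -0.064 for Inhba, -0.21 for Ltbp1, -0.043 for Smad7, -0.10 for Smad2 and -0.0075 for Smad3. On TPM it was 0.0508 or 0.0512 for Smad4 and 0.0024 or 0.0025 for Fstl3. Without both libraries of passage 2 it was -0.13 for Tgfb1 and -0.0056 for Tgfb3. Without 1 library it ran from -0.067 to 0.14 for Tgfb1, -0.0936 to 0.12 for Tgfb3 and -0.29 to 0.12 for Fstl3. Passage slopes of Tgfbr1 were 0.0247 with effective lengths as offsets and 0.0486 or 0.0498 on TPM, and without 1 library ran from -0.19 to 0.0352 for Tgfb1, -0.0566 to 0.11 for Tgfbr3 and -0.0034 to 0.11 for Tgfbr2. The interaction of Tgfb2 ran from -0.0409 to 0.89. On TPM the genotype calls of Timp3, Nedd4l, Col1a1, Tpm1, Inha and Itga5 and the passage calls of Acta2, Itgb8, Junb and Nrros ended, and effective lengths ended those of Inha, Nedd4l and Nrros. The cause of these changes was not tested. Tgfbr1, Tgfbr2 and Tgfbr3 stayed negative for genotype in each alternative run. Counts limit low genes such as Inha and Nrros.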
